A study of Homo sapiens with 18 samples.

Results

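Ubiquitin-conjugating (E2) enzymes take ubiquitin, or a related small protein such as NEDD8 or ISG15, from an activating (E1) enzyme and pass it to a substrate, usually with the help of a ligase (E3). Which E2 takes part decides much about the outcome: some attach a first ubiquitin, others build chains linked through lysine 48 (K48) that mark proteins for the proteasome, and others build chains linked through lysine 63 (K63) that serve in signalling and DNA repair. The genes described here were all protein-coding genes of GENCODE release 44 (hg38) whose symbol begins with UBE2, 37 of 20033 genes. 1 of them, UBE2F-SCLY, is a read-through of UBE2F into its neighbour SCLY and was represented by the same intervals as UBE2F, so values for these 2 genes are 1 measurement. E2 enzymes with other symbols, such as CDC34 and UFC1, were kept in a separate list of pathway genes.

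The histone marks of these genes were measured by Cut&Tag, in which an antibody directs a Tn5 transposase to a mark and the released DNA is sequenced. The cells were MOLM-13, a human acute myeloid leukemia line that carries a KMT2A::MLLT3 fusion. They received either the solvent DMSO or 100 nM PR-957 (ONX-0914), an inhibitor of the immunoproteasome subunit PSMB8, for 72 h per the labels (a legend of the study gives a shorter time, and the difference could not be settled here), in order to ask how the inhibitor changes the chromatin of KMT2A-rearranged cells. Each treatment had 2 libraries for each of 4 marks: H3K4me3, found at active promoters, H3K27ac, found at active promoters and enhancers, H3K4me1, found at enhancers and the flanks of promoters, and H3K27me3, laid down by Polycomb at silenced genes. All 16 libraries came from a single cell line, and the sources used here do not say whether the 2 libraries of a group came from separate cultures, so p-values measure the spread between these libraries, which may be technical.

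Total counts over the listed intervals were 30070119 to 44591150 in the H3K4me3 libraries, 9885836 to 14165777 in H3K27ac, 15204186 to 30584219 in H3K4me1 and 10032503 to 12047958 in H3K27me3. The labelled line was checked at promoters. SPI1, CD33, FLT3, MEIS1 and HOXA9, genes of myeloid cells and KMT2A-driven leukemia, all had an H3K4me3 interval (that of HOXA9 also covered starts of other HOXA genes), whereas CD3E, GATA1 and ALB had none. EPCAM lay at percentile 2.86 of the H3K4me3 level of protein-coding genes with an interval.

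For each mark, the intervals that touched the 2 kb on either side of any annotated transcription start site (TSS) of a gene were taken, and the 1 with the largest mean count stood for the gene. Levels are given as CPM, the count per 1000000 of a library's TMM-scaled total, and as CPM per kb of interval wherever 1 gene is set against another. Most UBE2 promoters carried the marks of active genes: 34 of 37 genes (91.9%) had an H3K4me3 interval and 34 an H3K27ac interval, against 63.9% and 60.4% of all protein-coding genes. The same 3 genes lacked both marks: UBE2QL1, a relative of the UBE2Q enzymes, UBE2U, a little-studied E2, and UBE2NL, a relative of UBE2N. In each of the 2 marks, the intervals of 7 members also covered a start of another protein-coding gene. They were UBE2B, UBE2D4, UBE2M, UBE2O, UBE2W, and UBE2F and UBE2F-SCLY, which cover each other's start. Their values cannot be assigned to the E2 gene alone. Intervals of some members also covered starts of long noncoding RNA genes, among them UBE2D3-AS1 at UBE2D3. H3K4me1 was listed at 25 genes (67.6%, against 43.4% of protein-coding genes). The 12 without it were UBE2A, UBE2B, UBE2C, UBE2D3, UBE2D4, UBE2E2, UBE2G2, UBE2K, UBE2NL, UBE2Q1, UBE2QL1 and UBE2U. H3K27me3 was listed at 1 gene only, UBE2QL1 (2.70%, against 19.8% of protein-coding genes).

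The CpG content of the sequence before the start differed between members. RefSeq promoter windows of GRCh38.p14, of which the 250 bases before the start were used, were matched for 28 of the 37 genes. Those without an entry in the table used included UBE2B, UBE2C, UBE2H, UBE2L5, UBE2NL, UBE2Q1, UBE2V2 and UBE2W. In 24 of the 28 the RefSeq start lay inside the gene's H3K4me3 interval. In UBE2D3 and UBE2L3 it lay outside, since their interval covered another annotated start, and UBE2QL1 and UBE2U had no such interval. The windows of 4 genes follow, with every CpG dinucleotide in capitals: UBE2R2, whose H3K4me1 is described further on, UBE2QL1, the gene with H3K27me3, UBE2U, which had no mark, and UBE2Z, the H3K4me3-marked member with the fewest CpG. All 4 lie on the plus strand and run 5′ to 3′, at chr9:33816910-33817159, chr5:6448609-6448858, chr1:64203373-64203622 and chr17:48908157-48908406.
UBE2R2: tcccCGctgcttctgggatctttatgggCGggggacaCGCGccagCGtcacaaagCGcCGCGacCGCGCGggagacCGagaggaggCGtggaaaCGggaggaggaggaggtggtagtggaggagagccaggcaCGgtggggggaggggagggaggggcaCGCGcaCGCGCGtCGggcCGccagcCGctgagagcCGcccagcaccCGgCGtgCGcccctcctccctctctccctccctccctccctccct
UBE2QL1: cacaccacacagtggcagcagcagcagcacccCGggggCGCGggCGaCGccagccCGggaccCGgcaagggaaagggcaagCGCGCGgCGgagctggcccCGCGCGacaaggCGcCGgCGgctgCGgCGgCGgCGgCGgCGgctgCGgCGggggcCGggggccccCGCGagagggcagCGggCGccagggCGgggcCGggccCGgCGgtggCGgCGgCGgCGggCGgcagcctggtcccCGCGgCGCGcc
UBE2U: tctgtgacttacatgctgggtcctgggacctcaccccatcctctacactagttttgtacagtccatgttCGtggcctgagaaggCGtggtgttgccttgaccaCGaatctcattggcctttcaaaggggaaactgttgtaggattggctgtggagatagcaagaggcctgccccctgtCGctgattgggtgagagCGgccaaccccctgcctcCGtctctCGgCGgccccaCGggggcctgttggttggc
UBE2Z: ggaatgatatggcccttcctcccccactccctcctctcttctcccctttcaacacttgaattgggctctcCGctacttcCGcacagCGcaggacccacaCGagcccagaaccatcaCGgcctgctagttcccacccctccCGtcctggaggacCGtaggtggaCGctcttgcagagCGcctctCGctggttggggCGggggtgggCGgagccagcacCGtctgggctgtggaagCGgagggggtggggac

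The UBE2QL1 window held 43 CpG dinucleotides and the UBE2U window 9, the highest and lowest counts among the 28 genes, at percentiles 98.7 and 29.1 of 15345 protein-coding genes. The UBE2R2 window held 27 and the UBE2Z window 14. Over the 28 UBE2 genes the median was 28, against 17 for all matched protein-coding genes, 21 for those with H3K4me3, 14 for those with H3K27me3 and no H3K4me3, and 4 for those with neither. The 26 UBE2 genes with H3K4me3 ranged from 14 to 39, so the CpG counts of UBE2QL1 and UBE2U lay on either side of theirs.

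Levels of the active marks differed several-fold between UBE2 genes. In DMSO, H3K4me3 ranged from 2.70 CPM per kb at UBE2L6 to 9.73 at UBE2D3, with a median of 4.78 against 4.59 for all protein-coding genes with an interval. H3K27ac ranged from 1.49 at UBE2L5 to 22.6 at UBE2D3, with a median of 5.46 against 4.00, and 22 of the 34 genes lay above the protein-coding median. Across the 33 distinct intervals, genes high in H3K4me3 tended to be high in H3K27ac (Pearson r = 0.77, Spearman rho = 0.71, over log2 levels in DMSO). This is a description across genes, which are not replicates and whose levels come from the same 2 libraries per mark, and r was 0.67 over 11359 protein-coding genes.

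H3K4me1 near annotated starts of these genes had a median of 1.17 CPM per kb in DMSO, against 1.32 for protein-coding genes with an interval. It ranged from 0.26 at UBE2E3 to 2.74 at UBE2W. Of the 25 intervals, 17 overlapped the H3K4me3 interval of the gene and 16 covered an annotated start, while the rest lay within 2 kb of 1. Some lay at starts far from the H3K4me3 interval, as at UBE2H (H3K4me1 at chr7:129858599-129864107, H3K4me3 at chr7:129948069-129953493).

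PR-957 left the promoter H3K4me3 and H3K27ac of UBE2 genes without a change past the threshold. In H3K4me3, 0 of 34 genes passed at an adjusted p of 0.05 in the edgeR quasi-likelihood test, where 0.219% of protein-coding genes did. An unadjusted p under 0.05 was held by 3 genes (UBE2V1, UBE2F and UBE2F-SCLY, the last 2 being 1 interval). These were 8.82% of the 34, beside 8.03% of protein-coding genes. In H3K27ac, 0 of 34 passed, against 0.48%, and 3 had an unadjusted p under 0.05 (8.82%, beside 9.55% of protein-coding genes). DESeq2 also called 0 in either mark, although it gave no adjusted p for 26 of the 34 genes in H3K27ac. The median log2 fold change (PR-957 over DMSO) was 0.0039 in H3K4me3 and 0.0098 in H3K27ac, beside -0.010 and 0.0005 over protein-coding genes. The 95% interval of the fold change lay within 1.5-fold in either direction at all 34 genes in H3K4me3 and at 26 of 34 in H3K27ac. Both PR-957 libraries lay on 1 side of both DMSO libraries at 18 genes in H3K4me3 (7 above, 11 below) and at 11 in H3K27ac (6 above, 5 below). Of protein-coding genes 37.8% and 38.5% separated in this way.

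Among the general partners of many E3 ligases (UBE2D1 to UBE2D4, UBE2E1 to UBE2E3, UBE2L3, UBE2L5 and UBE2W), all 10 had both active marks. Their H3K4me3 in DMSO spanned 3.12 to 9.73 CPM per kb and their H3K27ac 1.49 to 22.6. UBE2D3, which starts chains with many ligases, had 22.5 and 22.7 CPM per kb of H3K27ac in DMSO and 22.1 and 24.2 in PR-957, at percentile 99.6 of protein-coding genes. This interval (chr4:102825298-102829959) lay at another annotated start inside the gene, not at the RefSeq start (102868895). It also covered a start of the long noncoding RNA gene UBE2D3-AS1. UBE2D1, a relative of UBE2D3, was low in H3K27ac, with 2.36 and 2.82 CPM per kb in DMSO and 3.23 and 4.32 in PR-957. UBE2L3, the E2 of HECT and RBR ligases, had 4.91 CPM per kb of H3K4me3 and 5.25 of H3K27ac in DMSO, whereas its close relative UBE2L5 stood at 3.12 CPM per kb of H3K4me3 and was lowest of all members in H3K27ac.

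UBE2D1 had the third smallest p of the family in H3K27ac. Its interval (chr10:58334314-58336528, at a start of the gene) held 5.22 and 6.25 CPM in DMSO and 7.15 and 9.57 CPM in PR-957. The PR-957 libraries lay above the DMSO libraries, with a log2 fold change of 0.57 (SE 0.23), but the adjusted p was 0.431 in edgeR.

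The genes of K48 chains and of the endoplasmic reticulum (ER), UBE2G1, UBE2G2, UBE2J1, UBE2J2, UBE2K and UBE2R2, all had both active marks, with H3K4me3 between 4.52 and 9.31 CPM per kb. UBE2G1, which extends K48 chains, was second in H3K4me3 per kb among all members, and UBE2J1, an E2 anchored in the ER membrane, reached 10.4 CPM per kb of H3K27ac. UBE2G2, which serves ER-associated degradation, had 3.17. Fold changes of the 6 genes lay between -0.12 and 0.11 in H3K4me3 and between -0.07 and 0.13 in H3K27ac on the log2 scale.

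Of the genes of K63 chains, UBE2N is the catalytic enzyme and UBE2V1 and UBE2V2 are partners without a catalytic cysteine. UBE2N combined a low H3K4me3 level, 3.59 and 3.53 CPM per kb in DMSO and 3.39 and 3.29 in PR-957, with a high H3K27ac level of 12.2 and 10.8 CPM per kb in DMSO and 9.91 and 12.3 in PR-957. The UBE2N interval was 10.0 kb wide in H3K4me3 and 3.89 kb in H3K27ac, so the levels per kb rest on unlike widths. Not divided by width, it held 35.6 CPM of H3K4me3 and 44.8 CPM of H3K27ac on average in DMSO. The H3K4me3 interval of UBE2G1 held 33.1 CPM. UBE2V1 had 3.26 CPM per kb of H3K27ac in DMSO and UBE2V2 had 11.2.

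UBE2V1 and UBE2V2 were each among the 3 smallest p-values of a mark. At UBE2V1, H3K4me3 (chr20:50110011-50116964) was 27.1 and 26.7 CPM in DMSO and 30.7 and 29.1 CPM in PR-957. The groups did not overlap, but the log2 fold change was 0.15 (SE 0.08) and the adjusted p 0.664 in edgeR. At UBE2V2, H3K27ac (chr8:48006347-48012321) was 61.5 and 71.9 CPM in DMSO and 80.6 and 71.1 CPM in PR-957. Here the groups overlapped, with a log2 fold change of 0.19 (SE 0.07) and an adjusted p of 0.411 in edgeR.

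In the cell cycle and DNA repair group, UBE2C and UBE2S serve the anaphase-promoting complex in mitosis, UBE2T the Fanconi anemia pathway, and the RAD6 homologs UBE2A and UBE2B act on histone H2B and PCNA. UBE2C was low in both marks, at 2.85 CPM per kb of H3K4me3 and 1.83 of H3K27ac in DMSO, whereas UBE2S stood at 5.48 and 9.25. UBE2C H3K4me3 was 13.5 and 13.7 CPM in DMSO and 12.1 and 13.2 CPM in PR-957, and UBE2S H3K4me3 32.1 and 31.7 CPM in DMSO and 29.7 and 34.5 CPM in PR-957. The UBE2C libraries separated with PR-957 below DMSO and those of UBE2S overlapped, with adjusted p-values of 0.886 and 0.991 in edgeR. UBE2T had 15.6 and 15.3 CPM of H3K4me3 in DMSO and 15.4 and 16.6 CPM in PR-957, which overlap.

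UBE2A had the second smallest p of the family in H3K27ac. Its interval (chrX:119573752-119575626, at a start of the gene) held 11.5 and 15.1 CPM in DMSO and 8.25 and 10.6 CPM in PR-957. Both PR-957 libraries lay below both DMSO libraries, with a log2 fold change of -0.47 (SE 0.18) and an adjusted p of 0.423 in edgeR. UBE2B, at 41.0 CPM in DMSO and 36.3 CPM in PR-957 on average, also had its PR-957 libraries below, with an adjusted p of 0.725 in edgeR. The UBE2B interval also covers starts of CDKL3 and ENSG00000273345.

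The E2 enzymes of ubiquitin-like modifiers ranged widely. UBE2M, which transfers NEDD8, had 8.05 and 7.63 CPM per kb of H3K27ac in DMSO and 8.15 and 7.78 in PR-957, over a 17.6 kb interval that also covers starts of CHMP2A and TRIM28. UBE2F, the other NEDD8 enzyme, had 1.86 CPM per kb in DMSO. UBE2Z, which is charged by UBA6 with ubiquitin or FAT10, had 5.91.

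UBE2L6 transfers ISG15 and is induced by interferon. Its promoter held the lowest H3K4me3 level of the members, 2.70 and 2.69 CPM per kb in DMSO and 2.94 and 2.82 in PR-957. H3K27ac was 2.32 and 2.01 CPM per kb in DMSO and 1.85 and 2.26 in PR-957, with overlapping groups. The log2 fold changes were 0.09 (SE 0.12) in H3K4me3 and -0.07 (SE 0.40) in H3K27ac. The 95% interval in H3K27ac, from -0.85 to 0.71, reached past 1.5-fold in both directions, so a change of that size is not excluded.

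UBE2F had the smallest p of the family in H3K4me3. Its interval (chr2:237965945-237970182), which also represents UBE2F-SCLY, held 15.5 and 16.2 CPM in DMSO and 14.0 and 13.3 CPM in PR-957. The PR-957 libraries lay below, with a log2 fold change of -0.21 (SE 0.10) and an adjusted p of 0.587 in edgeR.

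Of the other members, UBE2H works with the CTLH ligase, UBE2O is a large E2 that also acts as a ligase, and UBE2Q1 and UBE2Q2 form the UBE2Q pair. These 4 lay between 4.25 and 5.05 CPM per kb of H3K4me3 and between 2.08 and 5.35 of H3K27ac, and 0 of them passed in either mark, with 0 at an unadjusted p under 0.05 and 0 in DESeq2. UBE2U and UBE2NL had no interval of any mark within the window. UBE2NL is a close copy of UBE2N, and it is unknown here how reads matching both genes were assigned.

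UBE2QL1 carried H3K27me3 (chr5:6448775-6451229, from 84 bases before the RefSeq start into the gene), and further intervals of the same mark lay downstream inside the gene. The promoter interval held 5.18 and 5.73 CPM in DMSO and 6.30 and 6.65 CPM in PR-957. PR-957 libraries lay above, with a log2 fold change of 0.25 (SE 0.25, 95% interval -0.25 to 0.74) and an adjusted p of 0.725 in edgeR. Among protein-coding genes 11.8% passed in H3K27me3, 49.0% had groups that did not overlap, and the median log2 fold change was -0.021. Over all intervals of the mark 5.92% passed, and 0 of the 9 over UBE2QL1 did. An unadjusted p under 0.05 was held by 0 of the 9, beside 22.9% of the intervals that represented protein-coding genes. DESeq2 called 0 of the 9 but gave the promoter interval no adjusted p.

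In H3K4me1, 3 of 25 genes had an unadjusted p under 0.05 in edgeR (12%, beside 16.9% of protein-coding genes). Past the adjusted threshold was 1 gene, higher in PR-957, where 2.15% of protein-coding genes passed. The gene was UBE2R2, which extends K48 chains on substrates of SCF ligases. Its interval (chr9:33813284-33818340) reaches from 3.88 kb upstream of the start to 1.18 kb into the gene and lies over the upstream flank of the H3K4me3 interval. H3K4me1 there was 5.22 and 6.61 CPM in DMSO (5.91 ± 0.98, SD, n = 2) and 8.60 and 9.05 CPM in PR-957 (8.82 ± 0.31, SD, n = 2), from 134 to 208 counts per library. Both PR-957 libraries lay above both DMSO libraries, with a log2 fold change of 0.59 (SE 0.17) and an adjusted p of 0.0312 in edgeR.

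Of the 4 overlapping H3K4me1 intervals at this promoter, 3 passed in edgeR, and the adjusted p of the 4 ran from 0.0283 to 0.0504. They share most of their reads and are not separate evidence. H3K4me3 at UBE2R2 was 26.1 and 24.5 CPM in DMSO and 22.8 and 23.8 CPM in PR-957, and H3K27ac 25.3 and 27.1 CPM in DMSO and 25.4 and 25.5 CPM in PR-957, with adjusted p-values of 0.815 and 0.975 in edgeR. The call in H3K4me1 was lost in DESeq2 (adjusted p = 0.558), which called 26 intervals of this mark where edgeR called 2099. It was also lost when any 1 of the 4 libraries was left out, with adjusted p-values of 0.421 and 0.0519 on leaving out the first or the second DMSO library, and 0.110 and 0.141 on leaving out the first or the second of PR-957. The alternatives together gave adjusted p-values between 0.00761 and 0.558, and a log2 fold change between 0.42 and 0.76. Total counts of the H3K4me1 libraries were 30584219 and 23874111 in DMSO and 15204186 and 22790073 in PR-957, and the part of depth in the result was not tested.

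The other 2 smallest p-values in H3K4me1 belonged to UBE2E3 and UBE2L3. UBE2E3, an E2 with an N-terminal extension, had a faint interval (chr2:180983416-180984523) outside its H3K4me3 interval, with 0.41 and 0.17 CPM in DMSO and 1.80 and 0.48 CPM in PR-957. The log2 fold change was 1.84 (SE 0.65) with an adjusted p of 0.103 in edgeR, and 0.00647 without PR-957 replicate 2, the lower of the PR-957 libraries, which then leaves a single PR-957 library assumed to vary like the others, and the range over the alternatives was 0.00647 to 0.794. UBE2L3 had 6.84 and 9.16 CPM in DMSO and 5.90 and 6.35 CPM in PR-957, with PR-957 below DMSO, a log2 fold change of -0.37 (SE 0.17) and an adjusted p of 0.238. Across the 25 genes the median log2 fold change was -0.068, beside -0.077 over protein-coding genes. The groups did not overlap at 12 genes, 9 with PR-957 above and 3 below, and 47.8% of protein-coding genes separated.

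The remaining H3K4me1 calls lay inside gene bodies. All intervals over the members' spans, from 2 kb before to 2 kb after each gene, were read from the same fit. In edgeR, 51 of 262 H3K4me1 intervals had an unadjusted p under 0.05, beside 16.9% of the intervals that represented protein-coding genes near a start. Past the adjusted threshold were 8 intervals (3.05%, against 1.94% of all intervals of the mark), each higher in PR-957, while DESeq2 called 0. The count was 0 when either DMSO library was left out and 4 when PR-957 replicate 1 was. The 8 intervals lay at 4 genes: 3 at UBE2R2, 3 overlapping intervals at UBE2H, 1 at UBE2D1 and 1 at UBE2V2.

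The UBE2H intervals sat 3.82 to 4.40 kb from the nearest annotated start. The widest (chr7:129843562-129848315), at 107 kb from the most upstream start of the gene, held 3.90 and 3.43 CPM in DMSO and 5.13 and 7.39 CPM in PR-957, with a log2 fold change of 0.79 (SE 0.20) and an adjusted p of 0.0130 in edgeR. In UBE2D1 the interval (chr10:58347903-58352438) held 6.17 and 4.93 CPM in DMSO and 9.37 and 7.61 CPM in PR-957 (log2 fold change 0.59, SE 0.17). In UBE2V2 it (chr8:48026221-48028883) held 0.61 and 0.79 CPM in DMSO and 1.99 and 2.52 CPM in PR-957, from 18 to 58 counts per library, with a log2 fold change of 1.70 (SE 0.43). At each of these genes both PR-957 libraries lay above both DMSO libraries.

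**Figure D1:**
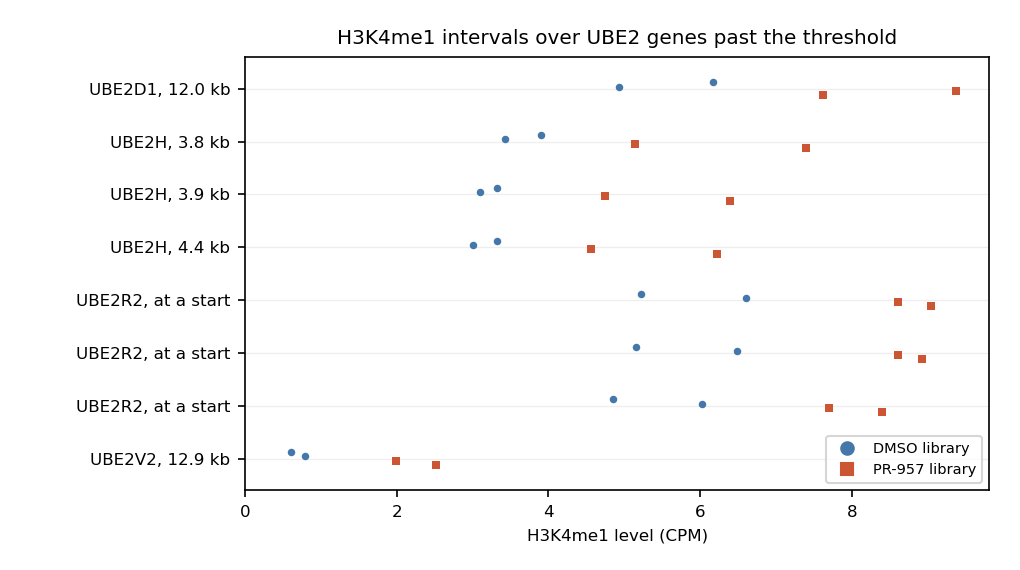
H3K4me1 level in CPM at the 8 intervals over UBE2 genes past an adjusted p of 0.05 in edgeR, with 1 point per library (circles, DMSO; squares, PR-957) and the distance to the nearest annotated start of the gene. Intervals of a gene overlap. In each interval both squares lie to the right of both circles, which choosing them by this test favours.

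Over the same spans, 0 of 154 intervals passed in H3K4me3 and 0 of 187 in H3K27ac, against 0.226% and 0.238% of all intervals of these marks. 8 and 13 had an unadjusted p under 0.05 in edgeR, and DESeq2 called 0 in both. Of the intervals that represented protein-coding genes near a start, 8.03% and 9.55% had an unadjusted p under 0.05.

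The rest of the pathway was read from a list of 64 genes: ubiquitin and its relatives, E1 enzymes, E2 enzymes with other symbols, and ligase subunits. In H3K4me3, 0 of 62 tested genes passed in edgeR, where 0.219% of protein-coding genes did, and 0 passed in DESeq2. An unadjusted p under 0.05 in edgeR was held by 0 of them, beside 8.03% of protein-coding genes. The 2 smallest p-values were those of RNF7, a RING subunit of cullin ligases (log2 fold change 0.16, adjusted p 0.668), and BIRC6, an E2 that is also a ligase (-0.15, adjusted p 0.676). In H3K27ac, 1 of 61 passed, where 0.48% of protein-coding genes did. It was ISG15, the interferon-induced modifier that UBE2L6 transfers, with 9.91 and 6.76 CPM in DMSO and 13.9 and 16.7 CPM in PR-957. Both PR-957 libraries lay above, with a log2 fold change of 0.87 (SE 0.18) and an adjusted p of 0.00262 in edgeR, which rose to 0.394 once DMSO replicate 2 was left out and to 0.524 in the absence of PR-957 replicate 2 (0.000989 to 0.524 over the alternatives). CUL2, a cullin scaffold, came next (log2 fold change 0.34, adjusted p 0.0930 in edgeR). The ISG15 interval spans chr1:999438-1003320. Starts of other genes inside the intervals of pathway genes were not examined in any mark. The values of ISG15 and the other pathway genes may therefore not belong to the named gene alone.

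In H3K4me1, 1 of 31 pathway genes passed, where 2.15% of protein-coding genes did, so the count lies near the background. ARIH2, an RBR ligase that works with neddylated cullins, had 5.96 and 5.64 CPM in DMSO and 9.75 and 7.57 CPM in PR-957, with a log2 fold change of 0.56 (SE 0.17) and an adjusted p of 0.0460 in edgeR. The adjusted p of ARIH2 was 0.578 in DESeq2, 0.211 and 0.217 with the first or the second DMSO library left out and 0.446 with the first PR-957 library left out, with a range of 0.0224 to 0.578 over the alternatives. MARCHF6, a ligase of the ER membrane, was next (log2 fold change 0.53, adjusted p 0.244). In H3K27me3, 0 of 5 passed in edgeR, where 11.8% of protein-coding genes did. An unadjusted p under 0.05 was held by 1 of them, beside 22.9% of protein-coding genes. DESeq2 also called 0 but gave no adjusted p for 3 of the 5. The smallest p-values were those of ANAPC2, the cullin of the anaphase-promoting complex (log2 fold change 0.09, adjusted p 0.317), and CDC34, the nearest relative of UBE2R2 (0.27, adjusted p 0.381). The ANAPC2 interval was 25.2 kb wide (chr9:137152206-137177371), so its value is not that of the ANAPC2 promoter alone.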

How the data were processed

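Counts of 16 Cut&Tag libraries were analysed, with 2 per treatment for each of 4 marks. Libraries from 2 IgG controls are not analysed here. Reads had been aligned by the authors to hg38 with Bowtie2 (2.2.5), and peaks had been called with MACS2 or SEACR. The submitters' processing notes also name SEACR 1.3, Trimmomatic 0.39, Picard 2.27.1, SAMtools 1.7 and deepTools 3.5.1. The deposited values are whole-number counts per listed interval, not normalized, on 1 interval list shared by the 4 libraries of a mark. The counter and the handling of duplicates are not given in the sources used here. Most loci are listed as several overlapping intervals, so counts of intervals are not counts of loci.

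For each mark, all intervals kept by filterByExpr (minimum count 10) were scaled by TMM and tested with the quasi-likelihood test of edgeR 4.0.16 in R 4.3.3, without the replicate number as a block, with Benjamini-Hochberg adjustment over all intervals at 0.05. CPM used the scaled totals. The 95% intervals came from the same fit and cover only the spread that 2 libraries per group can show. Fits were checked on simulated counts. With 2 libraries against 2, an exact permutation test cannot give a two-sided p below 0.333, so none was used.

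The members and gene lists were chosen with earlier results of these data known. Genes were named where they passed the threshold, where their p was among the 3 smallest of a mark, or for their role: UBE2L6, UBE2C, UBE2S, UBE2T, UBE2N, UBE2V1, UBE2M, UBE2QL1 and UBE2U. Values of 1 further member, counted in the totals, are not reported here. Pathway genes were named where they passed, or were among the 2 smallest p. Other members described in the text, such as UBE2D3 and UBE2G1, were chosen after their values were seen. The alternatives changed the scaling (cyclic loess offsets from limma 3.58.1, library size alone, or factors by median of ratios), the test (DESeq2 1.42.0), the filter (none, or a mean of 50 counts or more), the model (replicate block), the window (1 and 5 kb) and the libraries (each left out once). Removal of the trend on GC content (loess span 0.3), and all alternatives for gene spans, ISG15 and ARIH2, were added after seeing the data. The 28 RefSeq promoter sequences matched hg38 at their positions. Tables were built in Python 3.11.15.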

Additional observations from a re-analysis of the deposited data

How the results depend on the processing

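The counts of UBE2 genes called in H3K4me3 and H3K27ac stayed at 0 under all 14 alternatives, although DESeq2 gave no adjusted p for 26 of the 34 genes in H3K27ac. UBE2QL1 in H3K27me3 passed under 0 of 13 alternatives, since DESeq2 gave it no adjusted p. In H3K4me1 the count of 1 became 0 in DESeq2 and ranged from 0 to 1 when a library was left out, and the 1 gene called without PR-957 replicate 2 was UBE2E3 in place of UBE2R2. The H3K4me1 intervals called over gene spans fell from 8 to 5 with cyclic loess offsets and to 0 in DESeq2, with 0 to 7 when a library was left out (0 without either DMSO replicate, 4 without PR-957 replicate 1). Among pathway genes, the H3K27ac count of 1 became 2 at a mean count of at least 50, 0 in DESeq2 (which gave no adjusted p for 52 of the 61, ISG15 among them) and 0 to 2 when a library was left out (2 without DMSO replicate 1). The H3K4me1 count of 1 became 0 with cyclic loess offsets, in DESeq2 and with the GC trend removed, and was 0 to 1 with a library left out. The H3K27me3 count of 0 became 2 by library size only, 2 with cyclic loess offsets, 1 at a mean count of at least 50, and 0 to 1 with a library left out. The cause of these shifts was not tested.

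The members' medians lay near 0 and moved with the settings. In H3K27ac the median of 0.0098 ranged from 0.017 to 0.037 when a library was left out. In H3K4me1 the members' median of -0.068 was -0.019 by library size only, -0.034 with cyclic loess offsets, -0.10 with a 1 kb window (22 genes), 0.0067 with a 5 kb window (28 genes), and -0.053 to 0.014 when a library was left out, so its sign carries no information. In H3K4me3 the median of 0.0039 ranged from -0.031 to 0.0020 when a library was left out. In H3K27me3 the UBE2QL1 value of 0.25 was 0.41 by library size only, a scaling that also moved the median of protein-coding genes from -0.021 to 0.14.

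Of 463 values of single genes under the alternatives, 449 kept their side of the threshold and 24 changed sign, all among genes that did not pass, with log2 changes of at most 0.18 in size. The other 14 belong to UBE2R2, UBE2E3, ISG15 and ARIH2. The correlation of deviations between same-numbered libraries was weak in H3K4me3, at 0.17. In the other marks it lay near 0, at -0.0089 in H3K27ac, 0.0068 in H3K4me1 and -0.0069 in H3K27me3. With the replicate block, 1 UBE2 gene was called in H3K4me1 (UBE2R2, log2 fold change 0.58, adjusted p 0.0344 in edgeR) and 0 in each other mark, as without it. The 95% interval lay within 1.5-fold at 34 of 34 genes in H3K4me3, 26 of 34 in H3K27ac, 12 of 25 in H3K4me1 and 0 of 1 in H3K27me3.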
